A study of Arabidopsis thaliana with 144 samples.

Results

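A set of 32 Arabidopsis genes is described whose RNA rose with a bacterial synthetic community (SynCom) in low-phosphate seedlings of the phr1 phl1 double mutant, and rose less or not at all in the wild type Col-0. The genes were selected on measured values of these libraries, out of 27206 genes counted, of which 25170 had at least 1 count. Levels are a gene's counts per 1 M gene counts of the library (CPM), and the SynCom effect of a gene is its mean log2(CPM + 1) with SynCom minus that without. A gene entered if it averaged at least 5 CPM in the SynCom-treated phr1 phl1 libraries at low phosphate (15038 genes did). Its effect in phr1 phl1 also had to be at least 0.5 in each of 2 experiments, which 182 genes met, and had to exceed the effect in Col-0 by at least 0.7 in each. The selection therefore used the 48 low-phosphate libraries of Col-0 and phr1 phl1. Values from them are given as a description, and tested comparisons are between groups of the other 96 libraries. The fit behind these tests holds all libraries, so the 48 share in its estimates of spread and of the experiment term.

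The study profiled poly(A) RNA of whole seedlings of 3 genotypes, Col-0, phf1 and phr1 phl1, whose mutant alleles are not given in the sources used here. Seedlings grew for 7 days with 5 µM phosphate (Pi), 1 mM Pi or 1 mM phosphite, the −P, +P and +Phi pre-treatments. They were then kept for 12 days on medium lacking sucrose, where low Pi means 50 µM and high Pi means 625 µM, in the presence or absence of SynCom. There were 36 groups of 4 libraries, 2 from experiment A and 2 from experiment B. Unless stated, an arm below is the 12 libraries of 1 genotype, Pi level and SynCom state, over the 3 pre-treatments.

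PHR1 and its relative PHL1 are MYB proteins that activate much of the plant's response to Pi starvation, and PHR1 is also known to lower the expression of defence genes in plants with bacteria. PHF1 is needed for phosphate transporters of the PHT1 family to reach the plasma membrane, so phf1 plants take up less Pi while keeping PHR1 and PHL1. Plants meet microbes with pattern-triggered immunity and with the hormones salicylic acid and jasmonate, and with antimicrobial compounds such as camalexin and other indole derivatives made by cytochromes P450.

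Libraries held 0.72 M to 10.7 M gene counts. PHR1 had a median of 30.7 CPM (A) and 31.3 CPM (B) in phr1 phl1 against 72.0 and 66.2 CPM in Col-0, whereas PHL1 counts were higher in the mutant, with medians of 98.9 and 37.7 CPM against 16.7 and 12.9 CPM. For 4 libraries, each from experiment A, the PHR1 count relative to the PHL1 count (cut at a ratio of 2) went against the labelled genotype. They are the Col-0 library A1 of the +Phi pre-treatment at low Pi without SynCom, phr1 phl1 library A1 of +P, and phf1 libraries A2 of −P and A1 of +Phi, the last 3 at high Pi with SynCom. The shallowest library, A1 of phr1 phl1 after −P at low Pi with SynCom, was also among those the selection used. Without the 4 libraries 30 genes met the rule, of which 29 are among the 32, and without the shallowest as well 27 did, of which 25 are among the 32. Each count of tested genes below is repeated without the 4 libraries, and leaving out the shallowest as well gave the same counts in all 8 comparisons.

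By their RefSeq products the 32 genes included enzymes of oxidation and specialised metabolism, regulators, and transport and membrane proteins. Of 9 oxygenases and specialised enzymes, DIN11, JRG21 and AT2G38240 encode 2-oxoglutarate-dependent oxygenases, and JRG21 is known to hydroxylate jasmonic acid. CYP71A12, CYP71A20 and CYP82C2 are cytochromes P450, of which CYP71A12 and CYP82C2 act on indole compounds. TPS13 is a terpene synthase, LAS1 makes lanosterol, and AT1G26410 encodes a FAD-binding protein of the berberine family. Another 4 belong to phenylpropanoid and cell wall metabolism, the dirigent protein gene DIR5, the alcohol dehydrogenase gene ELI3-2, the methyltransferase gene CCOAMT and the peroxidase gene AT3G03670. GSTU3 (a glutathione transferase), TPX2 (a peroxidase that uses thioredoxin), ZF14 (an efflux carrier of the MATE family) and SKOR (the channel that releases potassium into the xylem) form a group of detoxification, redox and transport. Regulators and hormone-related genes number 8: the transcription factor genes NAC019 and AT1G75490, COR27 of the cold response, AFP3, whose protein binds the abscisic acid factor ABI5, and CNI1, a ubiquitin ligase gene. The others of this group are BRU6, which conjugates auxin to amino acids, MES9, which can release salicylic acid from its methyl ester, and AIR1, an auxin-induced root gene. The last 7 encode an EF-hand protein (AT1G21550), a secreted protein of the PR-1 superfamily (AT4G07820), an ankyrin protein (AT1G10340), a LURP-one-like protein (AT1G33840), a hydrolase (AT1G68620), a putative membrane lipoprotein (AT3G18250) and an uncharacterized protein (AT4G33467). This grouping was made with the values known. For 22 of the 32 no exonic run of 50 bases occurred elsewhere in the nuclear genome, for 10 some did (at most 13.1% of runs, in TPX2), and 6 are overlapped by another gene.

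The windows upstream of the genes were searched for 11 motifs, and the genes were placed on the chromosomes. Chromosomes 1 to 5 held 11, 3, 7, 9 and 2 of the genes. CYP71A20 and TPS13 were neighbours on chromosome 4, head to head with 3910 bases and no annotated protein-coding gene between them. In the 250 bases before the annotated gene start, on either strand, the G-box CACGTG stood in 8 of 32 windows (25.0%) and in 6.6% of the windows of 26704 genes. These were DIN11, ZF14, AT4G33467, NAC019, BRU6, AT1G75490, AFP3 and CNI1. The W-box core TTGAC stood in 62.5% against 45.0%, the as-1 core TGACG in 34.4% against 18.6%, and the abscisic acid element ACGTGNC, which can overlap a G-box and was present beside one in 7 of the 8, in 25.0% against 8.7%. The PHR1-binding element GNATATNC was in 0 of the 32 windows (5.4% of all), which says only that these letters are not in these windows. The same holds for the site II element TGGGCC, with 0 of 32 against 13.9%. These shares are descriptions, without a test.

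**Figure D1:**
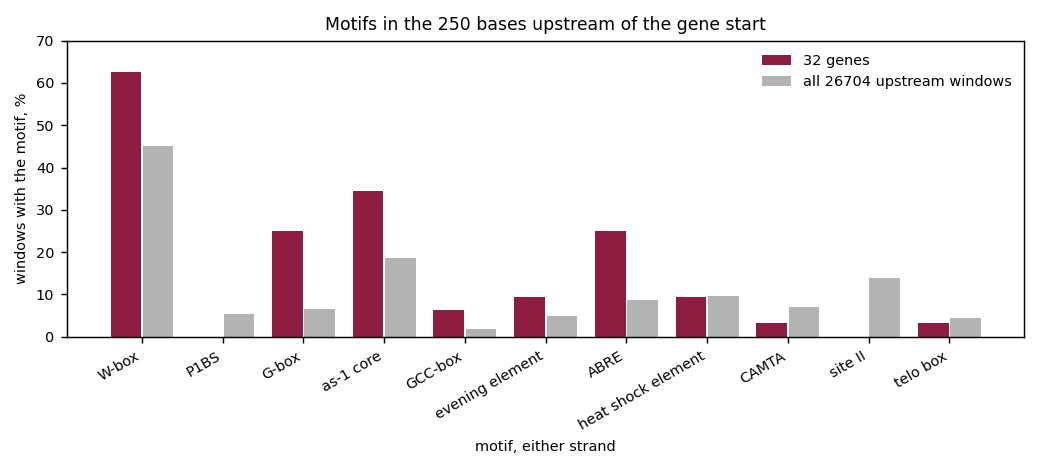
Share of upstream windows (y axis, %) that hold each motif (x axis) on either strand, for the 32 genes (dark red bars) and for all 26704 windows (grey bars). The G-box is in 25.0% of the windows of the genes and in 6.6% of all, and the site II element in 0.0% and 13.9%.

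The windows of DIN11, NAC019, BRU6 and CNI1 are shown as examples with a G-box, and those of CYP71A12 and AT4G07820 as examples with W-box cores. Capitals mark the G-box, the W-box core and the as-1 core on either strand. Each runs 5′ to 3′ in the direction of the gene, from the RefSeq genome (build TAIR10.1), at chr3:18393497-18393746 (DIN11, plus strand), chr1:19698483-19698732 (NAC019, minus strand), chr4:17579368-17579617 (BRU6, plus strand), chr5:9683738-9683987 (CNI1, plus strand), chr2:13101372-13101621 (CYP71A12, minus strand) and chr4:4637451-4637700 (AT4G07820, minus strand).
DIN11: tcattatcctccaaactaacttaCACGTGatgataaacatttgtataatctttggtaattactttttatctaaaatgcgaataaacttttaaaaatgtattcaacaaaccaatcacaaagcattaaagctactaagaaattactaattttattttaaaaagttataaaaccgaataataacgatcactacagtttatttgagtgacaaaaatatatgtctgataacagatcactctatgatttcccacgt
NAC019: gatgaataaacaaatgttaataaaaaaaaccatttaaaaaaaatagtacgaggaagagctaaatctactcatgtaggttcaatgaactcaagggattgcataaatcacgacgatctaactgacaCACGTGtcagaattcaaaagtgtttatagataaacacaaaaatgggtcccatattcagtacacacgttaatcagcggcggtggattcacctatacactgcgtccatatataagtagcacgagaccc
BRU6: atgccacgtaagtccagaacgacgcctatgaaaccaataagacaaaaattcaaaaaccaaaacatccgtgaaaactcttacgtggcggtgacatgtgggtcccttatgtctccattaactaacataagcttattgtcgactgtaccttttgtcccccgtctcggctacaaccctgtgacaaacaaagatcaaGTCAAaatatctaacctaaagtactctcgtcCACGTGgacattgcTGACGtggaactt
CNI1: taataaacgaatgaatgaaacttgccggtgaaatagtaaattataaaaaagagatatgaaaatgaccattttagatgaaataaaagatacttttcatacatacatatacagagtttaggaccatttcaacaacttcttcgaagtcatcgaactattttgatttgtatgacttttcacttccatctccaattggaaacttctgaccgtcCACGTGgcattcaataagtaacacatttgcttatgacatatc
CYP71A12: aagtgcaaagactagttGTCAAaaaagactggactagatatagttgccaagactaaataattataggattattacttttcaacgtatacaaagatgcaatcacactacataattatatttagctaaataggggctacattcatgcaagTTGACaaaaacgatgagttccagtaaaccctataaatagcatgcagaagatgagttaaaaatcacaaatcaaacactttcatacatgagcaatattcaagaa
AT4G07820: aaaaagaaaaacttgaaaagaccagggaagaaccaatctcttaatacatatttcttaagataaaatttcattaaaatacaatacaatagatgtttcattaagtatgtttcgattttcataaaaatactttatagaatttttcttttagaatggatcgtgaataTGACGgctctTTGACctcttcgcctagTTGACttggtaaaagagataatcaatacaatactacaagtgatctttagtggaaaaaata

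At low Pi the genes started lower in phr1 phl1 than in Col-0 without SynCom and ended higher with it, as a description of the values that chose them. Without SynCom the mutant lay below Col-0 for 27 genes in A and 24 in B (median difference −0.64 and −0.35 on the log2(CPM + 1) scale). With SynCom it lay above Col-0 for 30 and 31 genes (median 0.94 and 0.99). The median SynCom effect was 0.97 in A and 1.07 in B in phr1 phl1, and −0.54 and 0.03 in Col-0. Over 50% of the difference between the genotypes' effects came from the lower starting level for 13 genes in A and 8 in B. In these bulk libraries fewer cells of a type and less RNA per cell cannot be told apart.

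The response of Col-0 differed between the experiments. In Col-0 at low Pi 12 genes had a negative effect in both, 3 a positive effect in both, 13 a negative effect in A and a positive one in B, and 4 the reverse. Without SynCom 18 genes were at least 1 log2 unit higher in A than in B in low-Pi Col-0, and 4 were at least 1 unit higher in B. The mean log2(CPM + 1) over the 32 genes in these libraries was 4.21 ± 0.15 in A and 2.84 ± 0.36 in B (SD, n = 6 each).

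**Figure D2:**
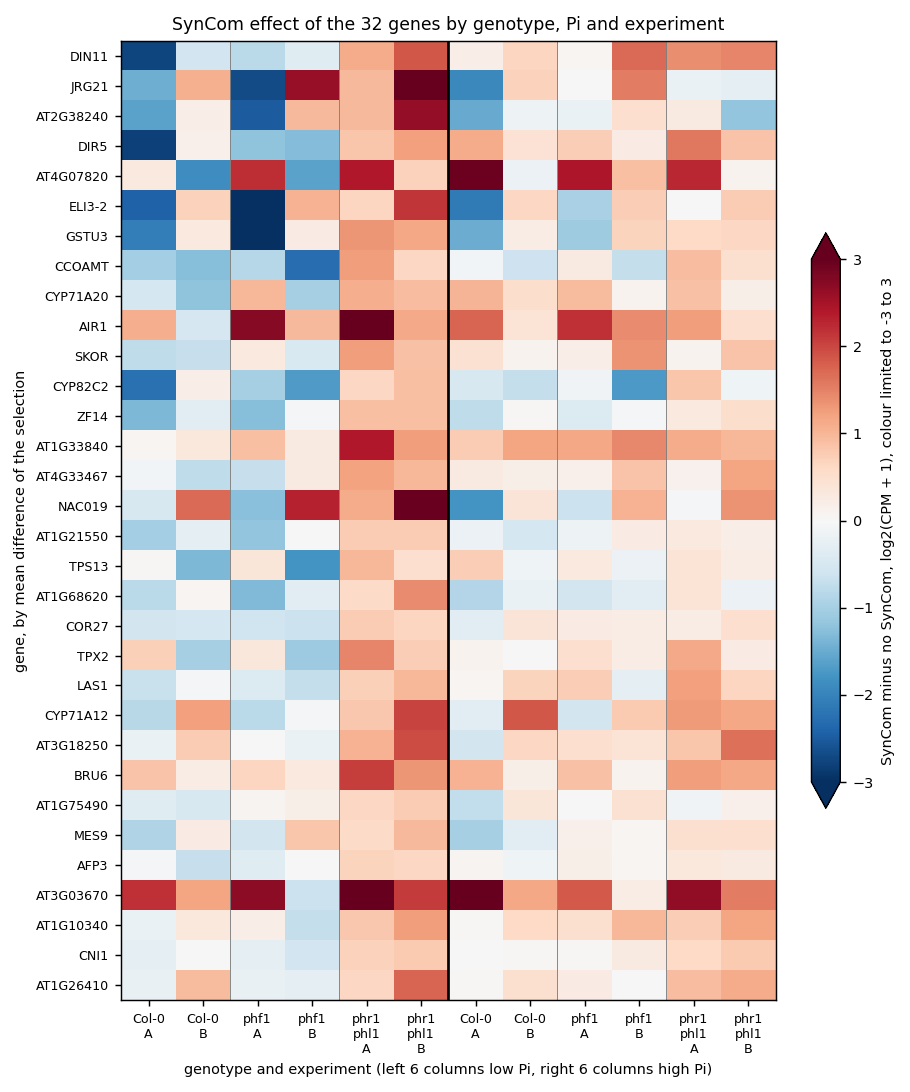
SynCom effect of each of the 32 genes (rows, ordered by the mean difference that chose them) as colour, in log2(CPM + 1), for the genotypes and experiments A and B (columns), low Pi on the left and high Pi on the right. The low-Pi columns of Col-0 and phr1 phl1 were used to choose the genes. Median effects in phr1 phl1 at high Pi, which was not used, are 0.68 (A) and 0.58 (B).

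DIN11 headed the list, with effects of −2.75 (A) and −0.57 (B) in Col-0 and 1.103 and 1.869 in phr1 phl1. Its level without SynCom was 5.95 CPM at the lowest, 22.0 at the median and 60.5 at the highest in Col-0, and 0.570, 4.35 and 63.4 CPM with SynCom. In phr1 phl1 the lowest, median and highest were 0, 3.81 and 33.5 CPM without SynCom, and 4.79, 15.9 and 41.5 CPM with it. The arms overlap in both genotypes, but the medians moved in opposite directions. JRG21 went from 0, 5.37 and 34.1 CPM (lowest, median and highest) to 1.06, 15.9 and 259 CPM in phr1 phl1. In Col-0 it went from 0, 17.4 and 167 CPM to 2.77, 10.4 and 46.7 CPM. The values of JRG21 span more than the change of the median in every one of these arms. The effect of JRG21 in Col-0 was −1.47 in A and 1.07 in B. In phr1 phl1 the rise of JRG21 in A rested on the +P plants, with an effect of 4.86. The −P plants had −1.30 and the +Phi plants −0.68. AT2G38240, next in the list, had 3.45, −0.26 and −0.28 in the same order. In B both genes rose in every pre-treatment. Without replicate A2 in every group neither gene met the rule.

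AT4G07820 (PR-1 superfamily) had 3.86, 8.81 and 41.3 CPM (lowest, median and highest) in phr1 phl1 without SynCom and 13.9, 33.9 and 49.2 CPM with it, against 3.57, 20.5 and 46.3 CPM and then 4.44, 7.70 and 12.8 CPM in Col-0. None of these SynCom libraries of phr1 phl1 was as low as the highest of Col-0. BRU6 had 6.08, 11.2 and 18.4 CPM in phr1 phl1 without SynCom and 11.2, 51.1 and 94.1 CPM with it. In Col-0 it had 5.18, 18.6 and 43.0 CPM and then 6.37, 24.1 and 86.2 CPM, and the Col-0 arms overlap over most of their range. The median of AT3G03670 moved from 0.304 to 10.4 CPM in phr1 phl1 and from 1.49 to 10.6 CPM in Col-0, so that it started lower in the mutant and ended at a like level. The genes with the highest means in phr1 phl1 with SynCom at low Pi were CNI1 (84.2 CPM), AT1G68620 (69.8), TPX2 (68.6), JRG21 (62.8) and AT1G10340 (58.9).

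**Figure D3:**
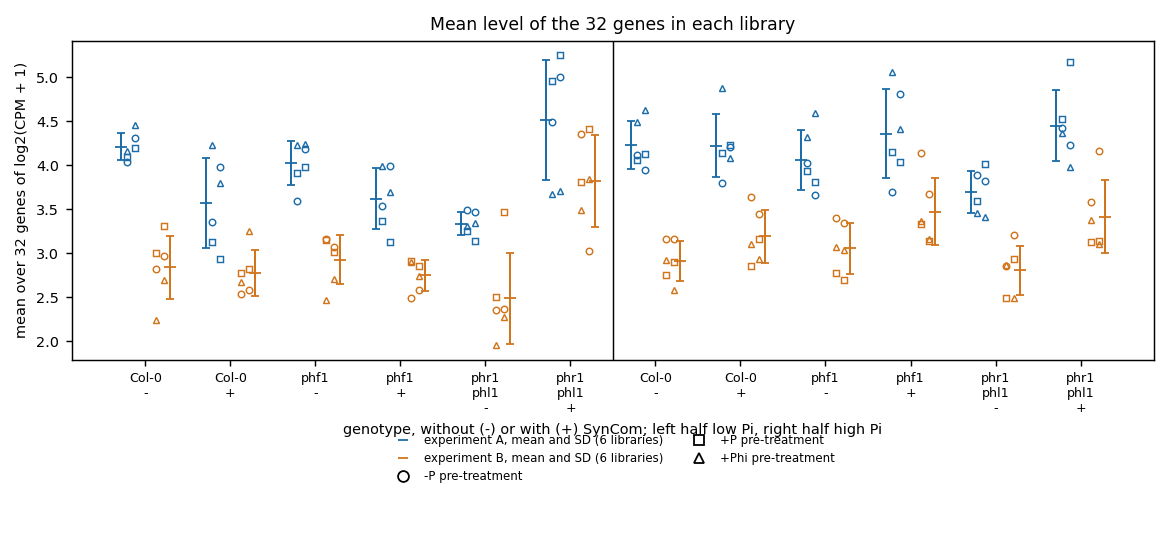
Mean of log2(CPM + 1) over the 32 genes (y axis) in each library, by genotype and SynCom (x axis), low Pi on the left and high Pi on the right. Symbols give the pre-treatment, colours the experiment, and bars the mean and SD of 6 libraries. In phr1 phl1 at high Pi the mean is 3.70 without and 4.45 with SynCom in A, and 2.81 and 3.42 in B.

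The mean differences of the selection ran from 3.15 for DIN11 to 0.82 for AT1G26410. The next smallest mean differences were those of CNI1 (0.89) and AT1G10340 (0.97), which is not the quantity the thresholds were set on. By the smallest margin on any threshold, CYP82C2 lay just inside and passed by 0.0033. TPS13 (0.0043), AFP3 (0.0134) and MES9 (0.0141) came next by this margin. Just outside lay PDC2, whose effect in phr1 phl1 in B was 0.0014 short, GPX7 (0.0055 short) and NATA1 (0.0157 short).

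At high Pi, in libraries that took no part in the selection, 12 of the 32 genes rose with SynCom in phr1 phl1 and 0 fell. Among all 19321 genes tested 3.3% were called higher and 0.895% lower. A gene was called at a Benjamini-Hochberg adjusted p under 0.05 in edgeR's quasi-likelihood test over all tested genes, and every one of the 32 was tested. The median change was 0.90 on the log2 scale, beside 0.003 over all genes, and 30 of the 32 changes were above 0. Experiment A alone called 14 genes higher (2.72% of all genes) and experiment B alone 9 (5.48%), with 0 lower in either (2.08% and 3.77% of all genes). Without the 4 libraries that went against their labels, and without these and the shallowest, 13 genes were called.

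The largest of these changes was that of the peroxidase gene AT3G03670. Its lowest, median and highest levels were 0, 1.26 and 5.06 CPM without SynCom and 0.487, 8.16 and 39.0 CPM with it. The groups overlap only through 1 SynCom library at 0.487 CPM, which is the phr1 phl1 library against its label, and the SynCom median lies above every library without SynCom. The change was 3.15 ± 0.51 (SE) on the log2 scale, adjusted p = 7.29e-06, with the SynCom mean higher in 6 of 6 pairs of pre-treatment and experiment. BRU6 had 6.04, 11.02 and 29.1 CPM without and 15.7, 29.1 and 66.5 CPM with SynCom, a change of 1.32 ± 0.25 (adjusted p = 0.000194, 6 of 6 pairs). Its groups overlap between 15.7 and 29.1 CPM.

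Among the regulators and hormone genes, CNI1 rose as well, by 0.82 ± 0.20 (adjusted p = 0.00614), while AIR1 changed by 1.13 ± 0.39 (adjusted p = 0.0841) and was not called. Among the oxygenases and specialised enzymes 4 of 9 rose. CYP71A12 had 3.53, 18.6 and 65.0 CPM (lowest, median and highest) without SynCom and 5.47, 42.1 and 205 CPM with it. Its change was 1.47 ± 0.33 (adjusted p = 0.00248). The groups overlap widely over both experiments, and within A the lowest, median and highest were 21.5, 41.0 and 65.0 CPM without and 52.0, 86.1 and 205 CPM with SynCom. DIN11 (1.47 ± 0.37, adjusted p = 0.00890), AT1G26410 (1.29 ± 0.29, adjusted p = 0.00214) and LAS1 (1.13 ± 0.27, adjusted p = 0.00430) rose as well. JRG21 and AT2G38240, which followed DIN11 in the order of the selection, changed by −0.32 and −0.44 at high Pi and were not called.

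AT3G18250, AT1G33840, AT1G10340, AT4G07820 and DIR5 completed the 12. The SynCom mean was higher in 6 of 6 pairs for every one of the 12 but AT4G07820, with 5 of 6. AT1G33840 had 0.543, 1.67 and 4.24 CPM without SynCom and 2.08, 4.27 and 11.4 CPM with it, a change of 1.33 ± 0.29 (adjusted p = 0.00168). The SynCom median lay just above the highest library without SynCom. AT4G07820 rose by 1.55 ± 0.40 over both experiments (adjusted p = 0.00956), but by 2.90 in A and 0.11 in B. It was the 1 gene of the 32 for which this effect differed between the experiments (adjusted p of the difference 2.6e-05), as it did for 8.05% of all genes.

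**Figure D4:**
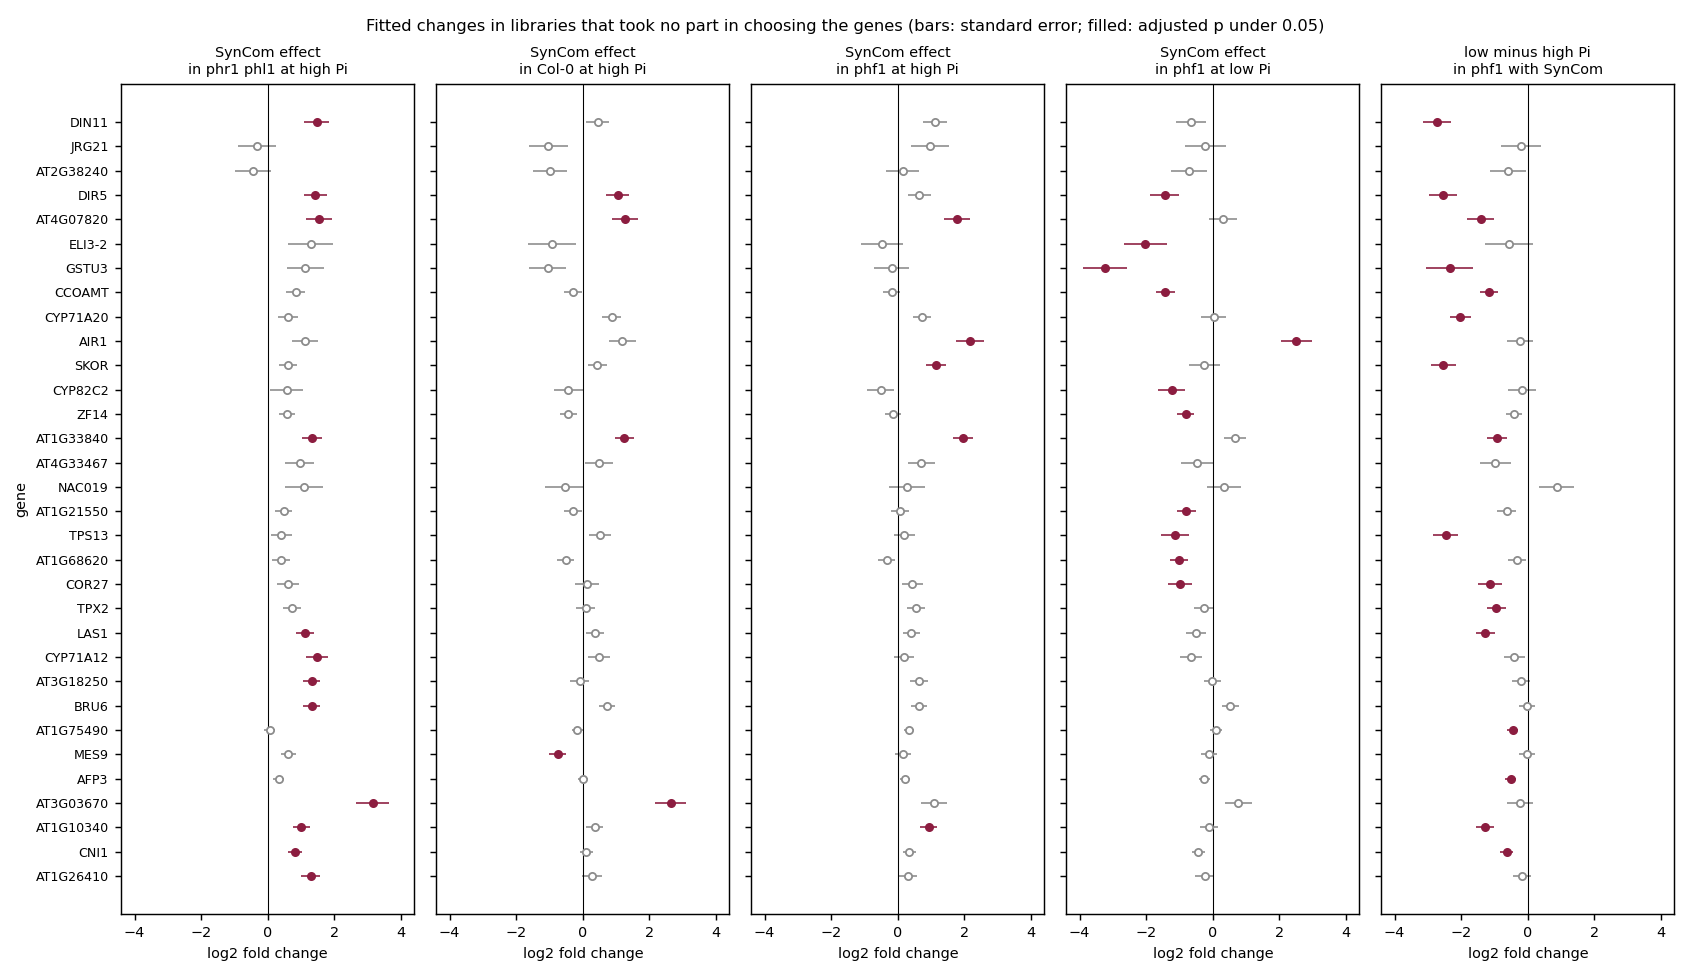
Fitted log2 fold changes (x axis) with standard errors for the 32 genes (y axis) in 5 comparisons of libraries not used to choose them. Filled points had an adjusted p under 0.05. In the first panel 12 genes are filled and 30 of 32 lie above 0, and in the fifth panel 16 are filled and 31 lie below 0.

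In Col-0 at high Pi SynCom raised 4 of the genes (4.77% of all tested genes were called higher) and lowered 1 (2.61% lower), with a median change of 0.12. AT3G03670 rose by 2.64 ± 0.45 (adjusted p = 1.39e-05), from 0.473, 2.92 and 12.5 CPM (lowest, median and highest) to 8.63, 18.5 and 68.2 CPM. AT1G33840 rose by 1.24 ± 0.28 (adjusted p = 0.00171), AT4G07820 by 1.28 ± 0.38 (adjusted p = 0.0246) and DIR5 by 1.05 ± 0.35 (adjusted p = 0.0436), in 5, 6, 4 and 5 of 6 pairs in this order. AT4G07820 changed by 3.23 in A and −0.14 in B, and AT3G03670 by 3.95 and 1.43. Both are among 7 of the 32 genes whose effect differed between the experiments, as 17.4% of all genes did. Each of these 4 was also called in phr1 phl1. MES9 fell by 0.76 ± 0.25 (adjusted p = 0.0397) in Col-0, and its change in phr1 phl1 was 0.61 ± 0.23 (adjusted p = 0.111). Experiment A alone gave 8 higher and 8 lower (11.6% and 9.99% of all genes), and B alone 3 higher and 0 lower (3.75% and 3.93%). Without the 4 libraries against their labels 5 genes were higher and 1 lower.

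For phf1 at high Pi 5 of the genes rose and 0 fell, where 2.43% and 1.88% of all genes were called higher and lower. AT1G33840 rose by 1.96 ± 0.30 (adjusted p = 1.45e-06), from 0.610, 1.19 and 2.82 CPM (lowest, median and highest) to 1.88, 4.87 and 7.71 CPM. AIR1, which shares 642 bases with AT4G12555 on the other strand, rose by 2.16 ± 0.42 (adjusted p = 0.000236), from 0.350, 3.23 and 9.61 CPM to 4.38, 14.0 and 39.1 CPM. The groups of AT1G33840 overlap between 1.88 and 2.82 CPM and those of AIR1 between 4.38 and 9.61 CPM. AIR1 had 0.350 to 2.31 CPM without and 4.38 to 18.2 CPM with SynCom in A, and 4.15 to 9.61 against 7.31 to 39.1 CPM in B. AT4G07820 (1.78 ± 0.39, adjusted p = 0.00164), SKOR (1.15 ± 0.31, adjusted p = 0.0153) and AT1G10340 (0.93 ± 0.25, adjusted p = 0.0164) were the others. SKOR rose in 5 of 6 pairs and the remaining 4 in 6 of 6. Leaving out the 4 libraries, 5 were again called higher and 0 lower, and 2 of those libraries belong to this arm.

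The comparison that chose the genes, the SynCom effect in phr1 phl1 minus that in Col-0, was repeated at high Pi. The difference was above 0 for 29 of 32 genes, with a median of 0.68 log2 units beside −0.02 over all genes. No gene passed the threshold: edgeR called 0 of the 32 and 0.0% of all genes in either direction (0.0% higher, 0.0% lower), and DESeq2 also called 0. At an unadjusted p under 0.05 edgeR had 13 of the 32, each with a positive difference, and 1773 of all 19321 genes, and DESeq2 had 10 of the 32. The smallest adjusted p was that of MES9, with a difference of 1.37 ± 0.33 (adjusted p = 0.114). AT3G18250 followed with 1.41 ± 0.39 (adjusted p = 0.226). Over both experiments a stronger SynCom response in the mutant than in Col-0 was not shown at high Pi for any of the 32 genes. This was so although 12 were called in the one genotype and 5 in the other. The count was 0 without the 4 libraries too. Experiment A alone called 1 of the 32, with the larger effect in phr1 phl1, and B alone called 0.

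Without SynCom at high Pi edgeR called 0 of the 32 genes different between the mutant and Col-0, with 8 at an unadjusted p under 0.05 and all 8 lower in the mutant, and DESeq2 called 0, with 7. Of all genes 0.0932% were called higher and 0.0155% lower in the mutant. The estimates were below 0 for 31 of 32 genes (median −0.34 beside 0.02 over all genes), as low as −1.35 ± 0.53 for GSTU3 (adjusted p = 0.367). Leaving out the 4 libraries also left 0 called. Other fits did call genes lower in the mutant: A alone called CYP82C2 (0.041% of all genes), B alone AT4G07820 (0.866%), and a fit of the compared libraries alone called 3, CCOAMT, GSTU3 and AT4G07820 (0.413%). With SynCom 3 genes were higher in the mutant and 0 lower, where 0.652% of all genes were called higher and 0.487% lower. MES9 had 2.11, 7.07 and 16.8 CPM (lowest, median and highest) in Col-0 and 5.01, 15.2 and 49.2 CPM in phr1 phl1, a difference of 1.202 ± 0.241 (adjusted p = 0.00323). The mutant median lay near the top of the Col-0 range. AT3G18250 differed by 1.101 ± 0.275 (adjusted p = 0.0224) and ZF14 by 0.94 ± 0.25 (adjusted p = 0.0410). The mutant mean was higher in 6, 6 and 5 of 6 pairs. These 3 calls did not hold in every refit. Experiment A alone called 2 of the 32 genes higher in the mutant and 0 lower, and B alone 0 higher and 1 lower. Leaving out replicate A1, A2 or B2 in every group, which also leaves fewer libraries to test, left 0 of them. Without the 4 libraries against their labels 2 stayed past the threshold, ZF14 being lost at an estimate of 0.94.

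**Figure D5:**
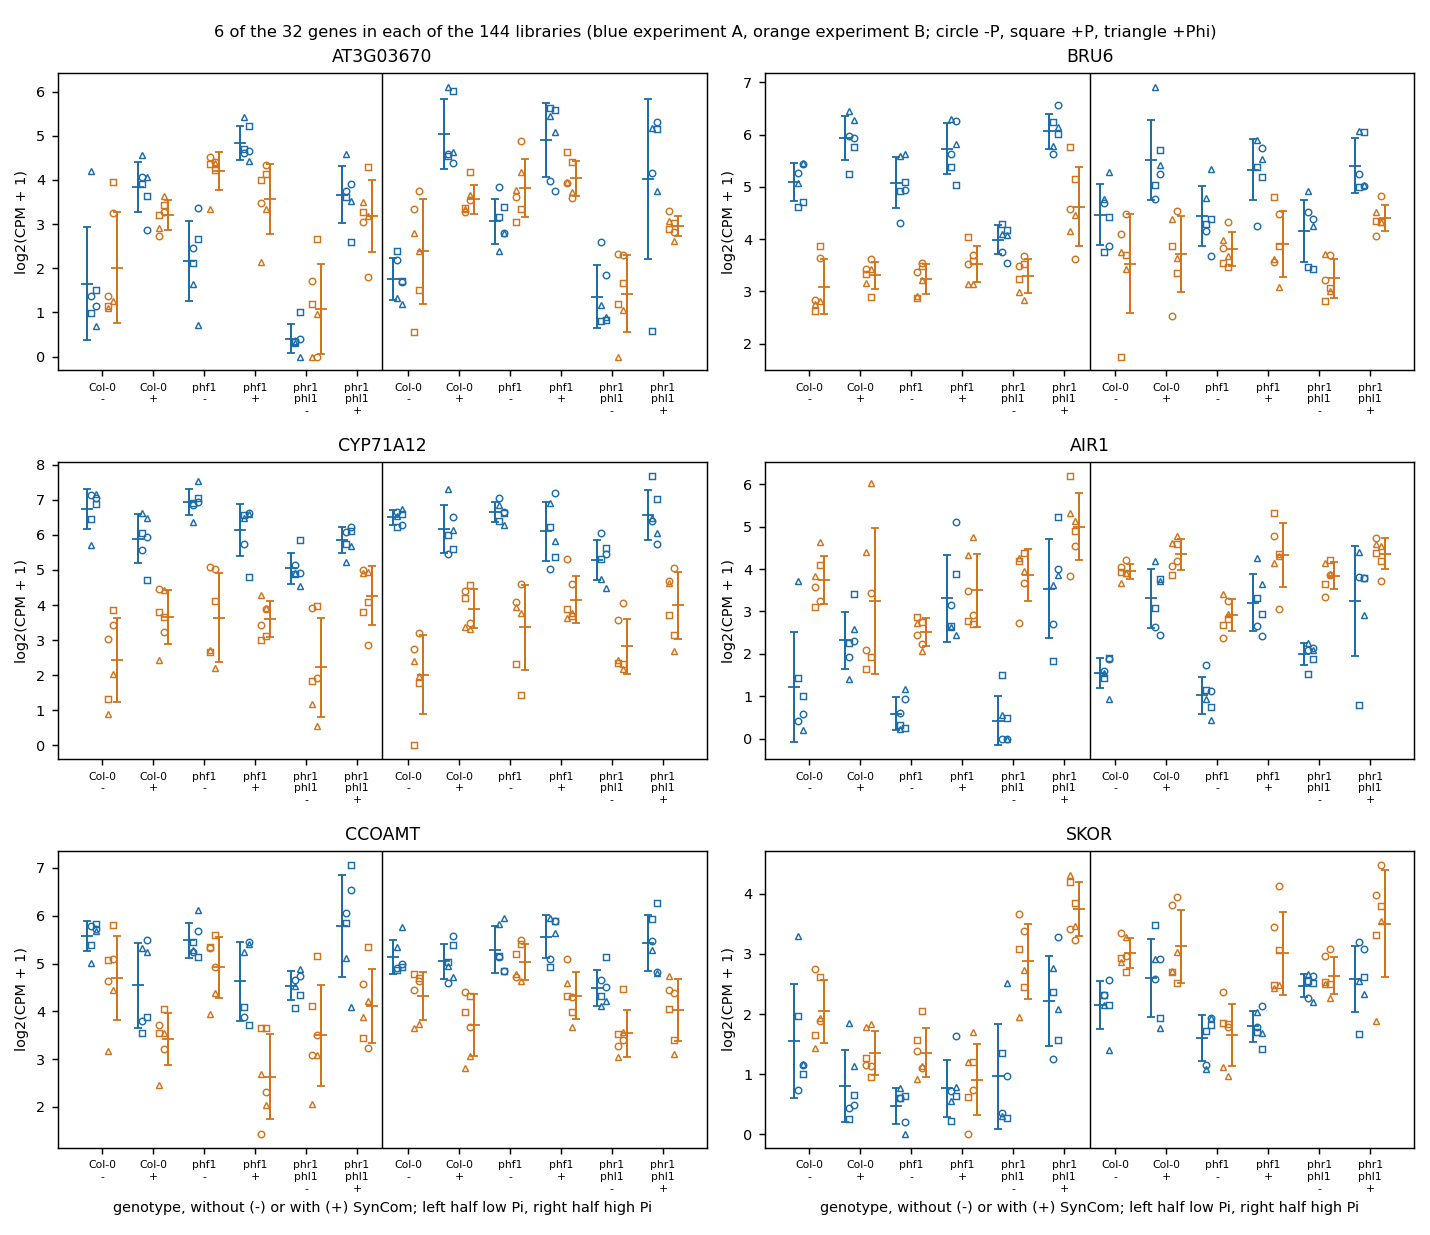
Levels of 6 of the genes in every library, as log2(CPM + 1) (y axis), by genotype and SynCom (x axis), low Pi on the left and high Pi on the right of each panel, with the mean and SD of 6 libraries beside the points. AT3G03670 rises with SynCom in phr1 phl1 at high Pi from a median of 1.26 to 8.16 CPM, SKOR is at a median of 0.656 CPM in phf1 with SynCom at low Pi and 3.91 CPM at high Pi, and CYP71A12 lies higher in A than in B.

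At low Pi phf1, a genotype the selection did not use, had more of the genes fall than rise. SynCom raised 1 of the 32 genes and lowered 10, where 9.01% of all genes were called higher and 8.49% lower. The median change was −0.35, beside 0.01 over all genes. AIR1 rose by 2.51 ± 0.47 (adjusted p = 2.38e-05), from 0.178, 2.22 and 6.34 CPM (lowest, median and highest) to 4.41, 7.21 and 33.5 CPM. CCOAMT fell by 1.42 ± 0.28 (adjusted p = 7.19e-05), from 14.5, 38.4 and 68.1 CPM to 1.69, 11.8 and 42.8 CPM. The groups of CCOAMT overlap between 14.5 and 42.8 CPM, and its SynCom mean was lower in 6 of 6 pairs. AIR1 changed by 4.49 in A and 0.93 in B and CCOAMT by −0.76 and −2.73, and both differed between the experiments.

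The other 9 genes that fell were GSTU3, AT1G68620, ZF14, DIR5, ELI3-2, CYP82C2, AT1G21550, TPS13 and COR27. DIR5 went from 4.72, 8.41 and 19.1 CPM (lowest, median and highest) to 0.843, 2.65 and 12.9 CPM, a change of −1.45 ± 0.45 (adjusted p = 0.0141) that was negative in 6 of 6 pairs. With DIR5, ELI3-2 and CCOAMT, 3 of the 4 phenylpropanoid and cell wall genes fell. CYP82C2, whose enzyme hydroxylates an indole carbonyl nitrile, fell by 1.24 ± 0.41 (adjusted p = 0.0252), from a median of 50.0 to 9.99 CPM. It was lower in 5 of 6 pairs, and its arms overlap from 2.39 to 128 CPM.

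The effect in phf1 at low Pi differed between them for 12 of the 32 genes at an adjusted p under 0.05, and for 31.6% of all genes tested. GSTU3 fell by 4.13 in A and changed by 0.54 in B, ELI3-2 fell by 2.97 in A and changed by 2.71 in B (adjusted p = 0.410), and TPS13 changed by 0.93 in A (adjusted p = 0.251) and fell by 2.68 in B. The difference between the experiments passed the threshold for TPS13, and not for GSTU3 (adjusted p = 0.0652) or ELI3-2 (adjusted p = 0.201). JRG21 fell by 2.81 in A (adjusted p = 0.000293) and rose by 3.17 in B (adjusted p = 0.00159), and NAC019 fell by 1.27 and rose by 2.58, so that neither was called over both. Of the 11 genes called, 8 had the same sign in both experiments. Experiment A alone called 10 genes lower and 6 higher (8.98% and 10.4% of all genes), and B alone 10 lower and 4 higher (16.1% and 17.8%). Without replicate A2 in every group 4 of the 32 were called. The replicate block, with the replicate numbers as a term, left out COR27 (10 called). Without the 4 libraries against their labels 1 gene was higher and 10 were lower.

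Levels in phf1 with SynCom were lower at low than at high Pi for 16 of the 32 genes and higher for 0, where 20.2% of all genes were called lower and 19.9% higher at low Pi. This comparison shares its low-Pi libraries with the one before. The median difference was −0.62 (−0.01 over all genes), 31 of 32 estimates were below 0, and A alone called 13 and B alone 17 genes lower (11.4% and 18.2% of all genes) and 0 higher (11.9% and 18.2%). SKOR, the potassium channel of the stele, had 0, 0.656 and 2.23 CPM (lowest, median and highest) at low Pi and 1.68, 3.91 and 16.5 CPM at high Pi. Its difference was −2.54 ± 0.38 (adjusted p = 3.47e-08), in 6 of 6 pairs, with the groups overlapping between 1.68 and 2.23 CPM. DIN11 had 0.843, 3.86 and 16.5 CPM at low and 6.94, 26.9 and 74.1 CPM at high Pi (−2.72 ± 0.42, adjusted p = 9.25e-08).

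The neighbours TPS13 and CYP71A20 were both lower at low Pi in phf1 with SynCom, by 2.47 ± 0.38 (adjusted p = 1.31e-07) and 2.03 ± 0.32 (adjusted p = 1.74e-07). TPS13 shares 265 bases with AT4G13290 on the other strand, and in non-stranded libraries such reads cannot be told apart. DIR5 was lower by 2.55 ± 0.42 (adjusted p = 5.77e-07) and AT1G10340 by 1.29 ± 0.26 (adjusted p = 3.31e-05). NAC019 was the 1 gene with an estimate above 0 (0.86). Without the 4 libraries against their labels 15 genes were lower, TPX2 being lost with a difference of −0.64 in place of −0.94.

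The camalexin and indole list, which holds CYP71A12 and CYP82C2, had 7 genes tested. In phr1 phl1 at high Pi 2 of the 7 rose with SynCom and 0 fell (median 0.93), these being CYP71A12 and CYP71A13. CYP71A13 rose by 2.09 ± 0.63 (adjusted p = 0.0355), with 0.24 in A and 4.58 in B. In phf1 at low Pi 3 rose and 1 fell. CYP79B2 and CYP79B3, which make the first intermediate of the pathway, rose by 1.43 and 1.04 there (−0.04 and 0.36 in A, 2.66 and 1.60 in B), and GGP1 by 0.57, whereas CYP82C2 fell. No other of the 32 genes is in a list that was compared. In phr1 phl1 at high Pi the lists of salicylic acid output (5 of 18 higher, median 1.33), salicylic acid synthesis and signalling (7 of 17, median 0.88) and pattern-triggered immunity (5 of 21, median 0.49) held genes that rose, with 0 lower in each, where 3.3% of all genes were called higher. Their median effects on the log2(CPM + 1) scale were 0.309 in A and 1.696 in B for salicylic acid output, 0.327 and 1.053 for synthesis and signalling, and 0.334 and 0.574 for pattern-triggered immunity. For salicylic acid output at high Pi the medians were −0.84 in A and 1.047 in B in Col-0, and −0.604 and 1.712 in phf1. The difference of SynCom effects between phr1 phl1 and Col-0 at high Pi was called for 0 genes of each of these 3 lists, as for 0.0% of all genes. In phr1 phl1 at high Pi the detoxification list went the other way, with 6 of 8 genes lower and 0 higher (median −1.04, 0.895% of all genes lower). This list fell in the other genotypes as well. In Col-0 at high Pi 7 of 8 were lower (median −1.89, 2.61% of all genes lower). In phf1 8 of 8 were lower at high Pi (median −1.61, 1.88%) and 7 of 8 at low Pi (median −1.89, 8.49%). In phr1 phl1 at high Pi 0 of 12 genes of jasmonate synthesis and 0 of 19 of jasmonate response were called (medians 0.159 and 0.023).

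Markers of tissues that whole seedlings hold in varying share moved in the same comparisons, and their part in the results was not tested. Root hair markers rose with SynCom in phr1 phl1 at high Pi (6 of 10 higher, 0 lower), where their summed level went from 42.0, 58.5 and 89.5 CPM (lowest, median and highest) to 59.6, 112 and 425 CPM. They rose in Col-0 at high Pi as well (8 of 10, median 1.57), from 23.5, 47.1 and 84.4 CPM to 67.3, 148 and 576 CPM, and in phf1 at low Pi (8 of 10), from 51.1, 123 and 193 CPM to 210, 320 and 577 CPM, where 10 of the 32 genes fell. The 14 photosynthesis markers had median changes of −0.15 in phr1 phl1 at high Pi and 0.02 in phf1 at low Pi. Their summed medians lay between 56480 and 66210 CPM in the arms of phf1 and phr1 phl1. The 7 endodermis markers tested had medians of −0.19 and −0.11 in the same order, but moved in opposite directions in the experiments. On the log2(CPM + 1) scale their medians were 0.448 in A and −1.142 in B in phr1 phl1 at high Pi, and 1.098 and −0.737 in phf1 at low Pi. In the comparison of low with high Pi in phf1 with SynCom, 8 of 10 root hair markers and 8 of 15 cell division markers were higher at low Pi, with 0 and 1 lower. All 7 suberin markers were higher at low than at high Pi in phf1 with SynCom, with summed levels of 88.4, 191 and 279 against 64.3, 86.7 and 130 CPM. No marker of these lists was at 0 in a whole arm.

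The 3 pre-treatments were compared as a description. In phr1 phl1 at high Pi, plants from −P, +P and +Phi had median effects over the 32 genes of 0.76, 0.67 and 0.38, and 29, 30 and 25 genes had a positive mean effect. In the low-Pi libraries of phr1 phl1 used for the selection the medians were 1.29, 1.34 and 0.74. There 27, 30 and 14 of the 32 genes had a positive effect in both experiments, so after +Phi most did not rise in both. In Col-0 at low Pi they were −0.40, −0.76 and 0.001. Whether these effects differ between the pre-treatments was not tested.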

How the data were processed

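Poly(A) RNA of whole seedlings was sequenced in non-stranded libraries, per the labels' protocols. The deposited table holds whole-number read counts per gene, not normalized; the submitters' processing notes name CASAVA 1.8, cutadapt 1.3, TopHat2 2.1.1, HTSeq 0.6.1p1 and TAIR10, without roles. CPM and the selection were computed from these counts. The members and lists were chosen with earlier results of these data known.

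Counts were tested with edgeR 4.0.16 (R 4.3.3): TMM factors (0.823 to 1.19), filterByExpr with a minimum count of 10 (19321 genes, all 32 selected), a mean for each of 36 groups plus an experiment term, fitted on all libraries including those of the selection, and the quasi-likelihood test with Benjamini-Hochberg adjustment. Standard errors are the fold change divided by the square root of F. P-values measure the spread between libraries, whose separate cultures the labels do not describe further. On simulated counts for the SynCom effect in phr1 phl1 at high Pi, 53.7% of genes changed 1.5-fold, 71.6% changed 2-fold and 93.9% changed 4-fold were recovered, with 3 false calls among 19121 unchanged genes. These counts were drawn from each gene's mean without SynCom, with no difference between experiments or pre-treatments. They were fitted for these libraries alone, so the rates are not those of the fit on all libraries. Alternatives were DESeq2 1.42.0, each experiment alone, other terms, filters and scalings, and left-out libraries; those without libraries against their labels were chosen after seeing the data.

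Genes are named where they had the 12 largest selection differences, belonged to a list, were among the 6 smallest adjusted p per direction and comparison, had the 5 highest levels, lay next to the thresholds or were neighbours; genes completing a short count are named too. No libraries of a group were identical. Upstream windows come from TAIR10.1, and the deposited table holds no coordinates.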

Additional observations from a re-analysis of the deposited data

How the results depend on the processing

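Of 134 alternative values for the counts of genes, 109 stayed within 1.5 times the reported count. For SynCom in phf1 at low Pi (11 called) the fit with no experiment term called 7, and leaving out a replicate gave 4 to 9. In phr1 phl1 at high Pi (12) no experiment term gave 4, and leaving out a replicate 8 to 12. In Col-0 at high Pi (5) experiment A alone gave 16, B alone 3 and no experiment term 2, with 2 to 7 when a replicate was left out. In phf1 at high Pi (5) B alone gave 9 (8 higher and 1 lower) and no experiment term 2, with 3 to 5 when a replicate was left out. For the difference of effects (0) A alone gave 1, with the larger effect in phr1 phl1. For the genotypes without SynCom (0) A alone gave 1, B alone 1 and a fit of only the compared libraries 3. For the genotypes with SynCom (3, all higher in the mutant) A alone gave 2 higher and 0 lower, and B alone 0 higher and 1 lower. There no experiment term gave 0, and leaving out a replicate 0 to 2. For low against high Pi in phf1 (16) leaving out a replicate gave 12 to 16. The rule found 18 genes at a pseudocount of 5, 19 at a minimum of 20 CPM, 74 and 18 with both thresholds 0.2 lower and higher, 116 without regard to experiment, and 28 to 37 when a replicate was left out, of which 22 to 28 are among the 32 (22 without B1).

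Of 774 alternatives for 52 called values of single genes, 644 kept the call, 126 lost it and 4 changed sign. The 4 were ELI3-2 (2.71) and GSTU3 (0.54) in phf1 at low Pi in B alone, TPS13 there in A alone (0.93) and AT4G07820 in Col-0 at high Pi in B alone (−0.14). The causes were not tested. With the replicate block the counts were 10, 13, 5, 5, 0, 0, 3 and 16 in the order above, and 1 of the 52 calls was lost. Same-numbered libraries did not deviate together on average (mean r 0.0093 over 1260 pairs of groups, lowest −0.4648 and highest 0.4631). A mean near 0 cannot exclude pairing in some groups, and the main fit treats the libraries as unpaired. Depth limits the genes near 1 CPM in the shallowest library, with 0.72 M counts.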
